A study of Mus musculus with 20 samples.

Results

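The comparison asks how the culture change of portal mesenchymal stem cells (PMSC) differed from that of hepatic stellate cells (HSC), gene by gene, in mouse liver cells. It used 16 of the 20 RNA sequencing libraries: 4 each of PMSC, of the myofibroblasts grown from them for 7 days (PMSC-MF-7d), of HSC and of the myofibroblasts grown from those (HSC-MF-7d). All came from the liver of C57BL/6 mice, with no genetic change and no agent in the labels. The sources used here do not give the isolation or the growth medium of the cells. The titles give 7 days for the cultured stellate cells but the series' design text gives 3 days, so their time is uncertain. The titles were followed, and values with the 4 libraries of PMSC cultured for 3 days (PMSC-MF-3d) are given where they matter. No label names the animals or cultures behind the 4 libraries of a group. The p-values therefore reflect only how far these libraries spread, which may be technical.

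The culture change of a gene is its log2 level in the cultured group minus that in the fresh group. The difference of culture changes is the change in PMSC minus the change in HSC, so a positive value is a gene that gained more, or lost less, in PMSC. The same number equals the gap between the lineages after culture minus the gap before it. The fresh gap is the log2 level in PMSC minus that in HSC, and the cultured gap is the log2 level in PMSC-MF-7d minus that in HSC-MF-7d. Of the 24848 genes in the files, 14751 passed the filter on low counts and were tested. Genes called in both lineages with opposite signs (edgeR, Benjamini-Hochberg adjusted p under 0.05) are named opposite movers, and there were 1725 of them. Levels are CPM, counts divided by the library's total and multiplied to a common size, scaled between libraries by trimmed means of M values. Values of the 4 libraries of a group are given in replicate order, or as the mean with the lowest and highest in brackets.

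As background, both cell types are liver mesenchyme. Stellate cells lie between hepatocytes and the sinusoidal endothelium and store vitamin A as retinyl esters, while portal mesenchymal cells lie around the portal vein and bile ducts. Plated on plastic, both turn into myofibroblasts that contract and make scar matrix. A gene that rises in one lineage and falls in the other can do so because the freshly isolated cells differed, because the cultured cells differ, or both, and the 2 gaps separate these cases.

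The libraries held between 11810532 and 26675589 expected counts. The summed level of 24 portal fibroblast and stem cell markers was 26591 to 30557 CPM in fresh PMSC and 1224 to 1445 CPM in fresh HSC, and that of 26 stellate markers 6773 to 10260.4 and 37830.3 to 55852 CPM, so each fresh group carried the markers of its label. Fresh HSC libraries also carried transcripts of other liver cells: the summed markers of hepatocytes were 5220.4 to 26779.6 CPM against 1286 to 2293 in fresh PMSC, of endothelium 12346 to 15191 against 784 to 1226, and of macrophages 4011 to 13819.6 against 49.3 to 68.2. In HSC-MF-7d the 3 sums were 194 to 244, 1013 to 1098 and 65.3 to 101 CPM. In bulk samples, fewer cells of a type and less RNA per cell cannot be told apart. The highest levels of Alb, the albumin gene, were 10514 and 9441 CPM, in HSC replicates 1 and 2.

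The culture changes differed in 8943 of 14751 genes. The difference was called for 4633 genes with a higher value in PMSC (31.4% of those tested) and for 4310 with a lower one (29.2%). Most genes differed between fresh and cultured libraries: in PMSC 38.1% rose and 39% fell, and in HSC 36% rose and 38.5% fell. In HSC the summed markers of other liver cells also fell, as given above, and their part in these shares was not tested. Of the opposite movers, 796 rose in PMSC and fell in HSC (5.4% of genes tested) and 929 fell in PMSC and rose in HSC (6.3%). That all 1725 had a called difference follows from how they were chosen. The split depends on the scaling and the method: of the called differences, 51.8% were higher in PMSC under trimmed means of M values, 66% when only library totals were used, 48.2% with DESeq2 size factors in edgeR and 68% under limma on log2(TPM + 1), which changes the unit and the model as well. Of the opposite movers, 46.1%, 63.3%, 40.9% and 65.6% rose in PMSC in the same order, so the direction with more genes differed between these settings. Without PMSC replicate 2 the shares were 46.9% of called differences and 38.8% of opposite movers. Library totals moved the median difference of all genes from 0.10 to 0.44 on the log2 scale.

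**Figure D1:**
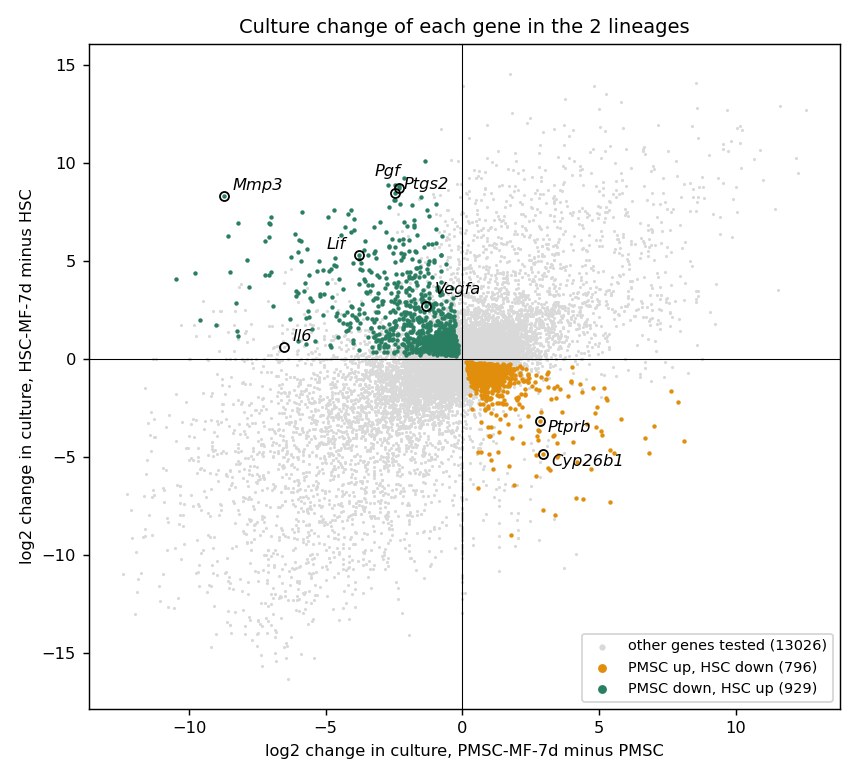
Each point is 1 of the 14751 genes tested, with its log2 culture change in PMSC on the horizontal axis and in HSC on the vertical axis; orange and green points are the opposite movers and open rings mark 8 named genes. The 929 genes that fell in PMSC and rose in HSC include 391 with changes of at least 2-fold in both lineages, against 155 of the 796 that did the reverse, and Il6 lies near the horizontal line, below the threshold for HSC.

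The 4 genes set for the comparison were Mmp3, Il6, Vegfa and Pgf. Mmp3 encodes stromelysin-1, a protease that cuts matrix and activates other matrix proteases (chr9:7445822-7455975 on the plus strand in GRCm38.p6, the genome build of the files). Mmp3 stood at 572, 987, 728 and 894 CPM in fresh PMSC and at 1.59, 2.94, 2.02 and 1.02 in PMSC-MF-7d, against 0.302, 1.01, 0.275 and 0.458 in fresh HSC and 70.5, 199, 193 and 186 in HSC-MF-7d. Each group lay wholly apart from its fresh or cultured counterpart. Mmp3 fell by 8.72 (SE 0.47) in PMSC and rose by 8.297 (SE 0.52) in HSC on the log2 scale, a difference of -17.02 (SE 0.700). Its fresh gap was 10.59 and its cultured gap -6.43, so the lineages exchanged rank, and the fresh gap was the larger (edgeR adjusted p = 2.3e-05 for the sizes). In HSC-MF-7d, replicate 1 stood below the other 3. PMSC-MF-3d held 42.1, 120.4, 118 and 115 CPM, and with them the cultured gap was -0.71 (edgeR adjusted p = 0.074) while the fall in PMSC was still called.

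Il6 encodes interleukin-6, the cytokine that drives the hepatic acute-phase response (chr5:30013114-30019975, plus strand). Il6 stood at 1459.8, 1634, 2153 and 1014 CPM in fresh PMSC and at 11.4, 21.2, 17.01 and 18.6 in PMSC-MF-7d, against 26.3, 12.2, 14.8 and 6.73 in fresh HSC and 15.2, 23.7, 24.9 and 28.2 in HSC-MF-7d. Only the fresh portal libraries stood high; the other 12 lay between 6.73 and 28.2 CPM. Il6 fell by 6.52 in PMSC, while its change of 0.61 in HSC did not pass the test (edgeR adjusted p = 0.075), so it is no opposite mover. The fresh gap of 6.701 made the difference of -7.13 (SE 0.45, edgeR adjusted p = 1.3e-10), and the cultured gap of -0.43 did not pass (adjusted p = 0.25). Against PMSC-MF-3d the cultured gap of Il6 was -1.52 and was called (edgeR adjusted p = 3.3e-04), with the fresh gap still the larger.

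Vegfa encodes the main endothelial growth factor (chr17:46016993-46032377, minus strand). Vegfa stood at 434, 318, 318 and 279 CPM in fresh PMSC and at 98.2, 127, 148 and 166 in PMSC-MF-7d, against 19.7, 22.8, 19.7 and 22.5 in fresh HSC and 109, 141, 151 and 152 in HSC-MF-7d. The cultured groups overlapped and the fresh groups did not. Vegfa fell by 1.32 in PMSC and rose by 2.71 in HSC, with a fresh gap of 3.99 (edgeR adjusted p = 1.5e-13) and a cultured gap of -0.04 (SE 0.15, adjusted p = 0.87). The difference between the culture changes of Vegfa was therefore the size of the fresh gap. Pgf encodes placental growth factor, a relative of Vegfa that binds its first receptor (chr12:85166637-85177785, minus strand). Pgf stood at 43.9, 45.7, 36.6 and 14.2 CPM in fresh PMSC and at 4.09, 11.9, 6.96 and 4.95 in PMSC-MF-7d, against 0.362, 0.417, 0 and 0 in fresh HSC and 81.1, 82.6, 92.2 and 85.1 in HSC-MF-7d. Its cultured HSC libraries were the highest of all and 2 of its fresh HSC libraries had no count. Pgf fell by 2.33 in PMSC and rose by 8.73 in HSC, and its cultured gap of -3.61 was called in the direction opposite to the fresh gap of 7.45, the larger of the 2 (adjusted p = 1.6e-04 for the sizes).

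**Figure D2:**
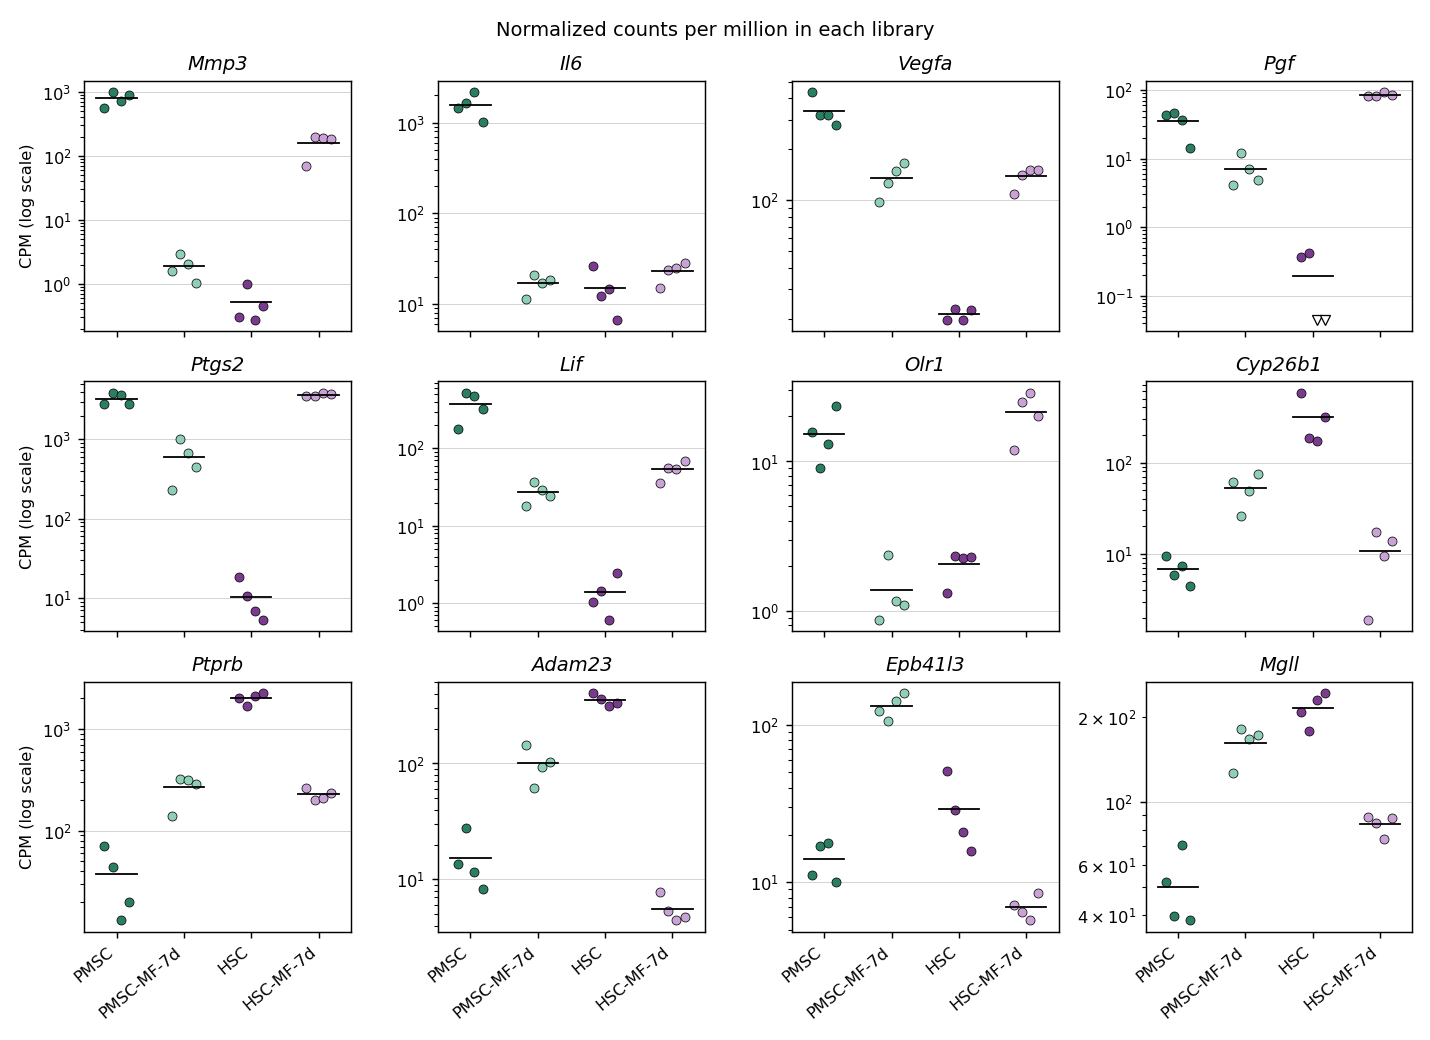
Points are single libraries and bars group means of 12 genes, in CPM on a logarithmic axis; an open triangle is a library with no count, drawn at the level of 3 counts over its group. In the first 7 panels the mean of fresh PMSC lies above that of fresh HSC and in the last 5 below it, with overlapping libraries in the panel of Epb41l3. The means of the cultured groups lie closer together than those of the fresh ones for Mmp3, Il6, Vegfa, Pgf, Ptgs2, Lif, Cyp26b1, Ptprb and Mgll.

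The lineages differed in more genes when fresh than after culture, over all genes as well as among the opposite movers. The fresh gap was called in 73.7% of all genes tested and the cultured gap in 47.1%. Fresh HSC also carried more transcripts of hepatocytes, endothelium and macrophages than fresh PMSC, as given above. Their part in the fresh gaps was not tested. Among opposite movers the median size of the fresh gap was 1.61 on the log2 scale and that of the cultured gap 0.52, against 0.898 and 0.45 in all genes tested. The fresh gap was the larger in 1245 of 1725 (72.2%), the cultured gap in 171 (9.91%), and 309 (17.9%) could not be separated. Over all genes tested the fresh gap was larger in 36.5% and the cultured gap in 8.7%, and among genes with a called difference that were no opposite movers in 57.4% and 15.4%. The fresh gap made up a median of 83.3% of the difference in opposite movers, 83.4% in the other genes with a called difference and 84.3% in all genes tested, so this share does not set the opposite movers apart. Where the 2 gaps point the same way, the size test is the difference that chose the genes, so the 478 and 54 such genes are a description. Where the gap changed sign (1193 genes), the sizes were compared by the sum of the 2 gaps, which holds the mean levels of the lineages and not the changes that chose the genes. Of these, 767 (64.3%) had the larger gap in fresh cells and 117 (9.81%) in cultured cells. Among genes with a called difference and a change of sign that were no opposite movers, the shares were 39.8% and 11%. Where the gap changes sign, the sum cannot exceed the difference in size. The median size of the difference was 1.96 over all opposite movers and 1.19 over the other genes with a called difference. The shares of the 2 sets are therefore not free of how the genes were chosen.

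Counted another way, 724 opposite movers (42%) had a called gap in fresh cells alone, 670 (38.8%) had called gaps of opposite sign, 232 (13.4%) had called gaps of the same sign, and 99 (5.74%) had one in cultured cells alone. In both directions the fresh gap was the larger for most genes. It was larger in 74.3% of genes that fell in PMSC and rose in HSC and in 69.7% of those that did the reverse. Within the 1204 opposite movers that reached 10 CPM in the higher group of each lineage, the shares with the larger fresh and cultured gap were 70.7% and 11.5%. Changes of at least 2-fold in both lineages were found in 546, 391 of them with a fall in PMSC. At the threshold, Cramp1l was just inside (changes of -0.26 and 0.39, edgeR adjusted p = 0.0499 in PMSC) and Glod4 just outside (0.24 and -0.86, adjusted p = 0.0509 in PMSC).

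**Figure D3:**
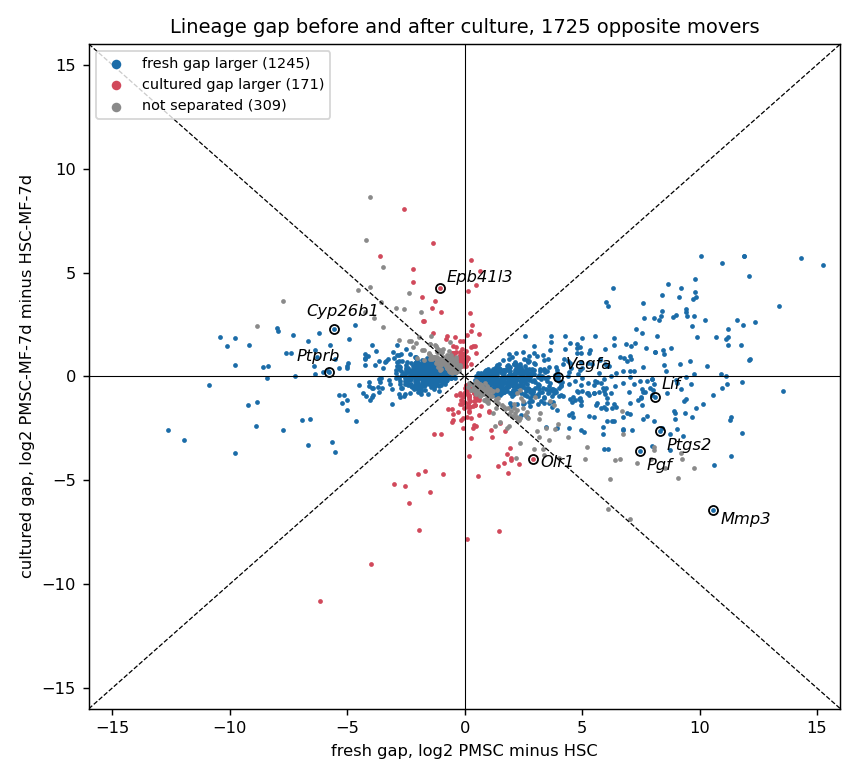
Each point is 1 of the 1725 opposite movers, with its fresh gap on the horizontal and its cultured gap on the vertical axis, both in log2; dashed lines mark gaps of equal size. Blue points, where the fresh gap was larger, spread along the horizontal axis, and the 171 red points, where the cultured gap was larger, spread along the vertical axis.

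Of 25 matrix proteases and their inhibitors, 14 fell and 7 rose in PMSC, while 6 fell and 14 rose in HSC. Among them 19 had a lower difference and 1 a higher one, with a median of -2.58 against 0.10 over all genes (0.11 with groups without counts set to the floor of 3 counts). Over all genes tested 29.2% had a lower difference and 31.4% a higher one. In addition, 6.3% fell in PMSC and rose in HSC, and 5.4% did the reverse. The counts of every list below are to be read beside these shares. Of the 6 opposite movers in the protease list, 5 fell in PMSC and rose in HSC: Mmp3, Serpine2, Plat, Timp2 and Timp3. Serpine2 encodes protease nexin-1, an inhibitor of thrombin and plasminogen activators. Serpine2 stood at 284, 205, 183 and 201 CPM in fresh PMSC and at 18.97, 26.5, 20.4 and 21.1 in PMSC-MF-7d, against 4.04, 5.9004, 7.097 and 8.56 in fresh HSC and 146, 139.7, 143 and 122 in HSC-MF-7d. Its lineages exchanged rank, with gaps of 5.09 and -2.67. Plat, the tissue plasminogen activator gene, went from 577 CPM (525 to 684) to 31.5 CPM (17.5 to 47.4) in PMSC and from 5.96 CPM (3.74 to 10.7) to 16.6 CPM (13.5 to 19.1) in HSC. It kept a cultured gap of 0.93 on the portal side, against 6.59 in fresh cells. Timp3, an inhibitor of metalloproteases that binds to matrix, fell by 0.32 in PMSC, a small fall, and rose by 2.47 in HSC; it was an opposite mover in 11 of 26 other settings. The one gene of the other direction was Mmp11, at 13.1 to 19.6 and 19.5 to 35.4 CPM in PMSC and 10.6 to 18.5 and 6.1997 to 7.78 in HSC, with overlapping fresh groups; it was no opposite mover with the 3-day libraries.

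In the list of IL-6 family members and other cytokines 17 of 24 fell in PMSC and 13 fell in HSC. Of these genes 13 had a lower difference and 5 a higher one, with a median of -1.32. Lif, Il11, Csf2 and Tslp were opposite movers that fell in PMSC, and Tnfrsf11b was one that rose. Tslp was not one without HSC replicate 2. Lif encodes leukemia inhibitory factor, which signals through the receptor chain that Il6 also uses. Lif stood at 176, 524, 473 and 323 CPM in fresh PMSC and at 18.03, 37.1, 28.7 and 24.6 in PMSC-MF-7d, against 1.03, 1.43, 0.605 and 2.48 in fresh HSC and 36.3, 56.5, 54.7 and 69.3 in HSC-MF-7d. The fresh groups lay wholly apart, and the gap went from 8.098 to -1.001. Il11, a relative that acts on fibroblasts, went from 30.3 CPM (18.4 to 41.6) to 5.59 CPM (3.37 to 8.36) in PMSC and from 0.213 CPM (0 to 0.495) to 4.59 CPM (2.998 to 7.75) in HSC. At 3 days PMSC held 135 to 212 CPM, a rise of 2.53, so Il11 was an opposite mover with the 7-day libraries and not with the 3-day ones. Tnfrsf11b encodes osteoprotegerin, a decoy receptor for the bone factor RANKL. Tnfrsf11b stood at 15.4, 11.8, 33.5 and 38.4 CPM in fresh PMSC and at 101, 148, 136 and 138 in PMSC-MF-7d, against 376, 441, 482 and 344 in fresh HSC and 208, 173, 173 and 172 in HSC-MF-7d. Its fresh gap of -4.05 was called, and its cultured gap of -0.47 did not pass (edgeR adjusted p = 0.12). Targets of NF-kB, the inflammatory transcription factor, had a lower difference in 16 of 18 (median -2.09) and a single opposite mover, Cd40, a costimulatory receptor. Cd40 had no called fresh gap (0.19, edgeR adjusted p = 0.60) and a cultured gap of -3.84.

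Immediate-early genes, which are switched on within minutes of stress or growth signals, fell in 28 of 29 in PMSC and in 23 in HSC. The difference was lower for 18 and higher for 2, with a median of -1.37. Their summed level was 36174 to 50749.9 CPM in fresh PMSC and 17713 to 30502 in fresh HSC, and 2199.6 to 2818 and 5605 to 6409 in the cultured groups; its part in the results of fresh cells was not tested. Fos itself fell in both lineages and its difference did not pass (0.75, edgeR adjusted p = 0.22). The opposite movers were Ptgs2, Fosl1, Maff and Klf6. Ptgs2 encodes cyclooxygenase-2, the inducible enzyme of prostaglandin synthesis. Ptgs2 stood at 2782, 3809.5, 3647 and 2813 CPM in fresh PMSC and at 228, 1013, 683 and 443 in PMSC-MF-7d, against 18.2, 10.6, 6.99 and 5.29 in fresh HSC and 3507, 3562, 3871 and 3754 in HSC-MF-7d. Fresh HSC stood low in every library, and cultured HSC overlapped fresh PMSC. Ptgs2 fell by 2.46 in PMSC and rose by 8.48 in HSC. Its gaps were 8.31 in fresh and -2.63 in cultured cells, the fresh one the larger (adjusted p = 7.6e-09 for the sizes). Fosl1, a Fos relative that forms AP-1 dimers, showed 179.8, 169.9, 277 and 157 CPM in fresh PMSC, 36.9, 69.1, 53.1 and 45.4 in PMSC-MF-7d, 0.121, 1.61, 1.1003 and 0.719 in fresh HSC and 61.3, 60.2, 59.3 and 61.2 in HSC-MF-7d. The cultured gap of -0.24 did not pass (edgeR adjusted p = 0.39), but with PMSC-MF-3d it was 1.09 and called (adjusted p = 3.7e-04). Maff, a small Maf partner of stress factors, fell by 3.86 in PMSC and rose by 1.995 in HSC. Klf6 moved the other way by small steps (0.295 and -0.27) and was an opposite mover in 11 of 26 other settings.

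HIF factors switch on genes of the hypoxia response and of glycolysis when oxygen is low. Of 33 such genes, 25 rose and 5 fell in HSC, while 13 rose and 13 fell in PMSC. The difference was lower for 23 and higher for 4, with a median of -0.70. All 7 opposite movers fell in PMSC and rose in HSC: Slc2a1, Hk2, Pfkp, Pfkfb3, Pfkfb4, Eno2 and Slc16a3. Hk2 encodes hexokinase 2, the first step of glycolysis. Hk2 stood at 985, 1206, 1115 and 847 CPM in fresh PMSC and at 32.4, 68.5, 55.5 and 43.01 in PMSC-MF-7d, against 40.4, 20.4, 23.3 and 20.4 in fresh HSC and 75.8, 100.2, 89.9 and 104 in HSC-MF-7d. Its gap went from 5.31 to -0.89, the fresh one being the larger (edgeR adjusted p = 2.2e-10 for the sizes). Slc16a3, the lactate exporter MCT4, fell by 2.37 from 60.8 CPM (50.3 to 71.98) to 11.7 CPM (10.6 to 13.3) in PMSC and rose by 2.62 from 4.51 CPM (2.04 to 6.46) to 27.8 CPM (27.3 to 28.02) in HSC. The glucose transporter Slc2a1 fell by 1.44 and rose by 1.702, and its fresh gap of 2.58 became -0.56. Eno2, neuron-type enolase, was the exception that kept a portal excess after culture (2.27). With the 3-day libraries Slc2a1 was no longer an opposite mover, and Hk2 and Slc16a3 were. Pfkp and Pfkfb4 were none with library totals or limma, Pfkfb4 none without PMSC replicate 3 or PMSC-MF-7d replicate 1 or 2, and Pfkfb3 none without HSC replicate 2. Angiogenic factors and receptors were split, 11 higher and 10 lower of 24 (median 0.31), and 4 of the 5 opposite movers were factors that fell in PMSC: Vegfa, Pgf, Angptl4 and Angpt4. Angptl4, a secreted inhibitor of lipoprotein lipase, is described with the genes whose cultured gap was larger. Angpt4, a Tie2 ligand, had no count in fresh HSC and 0.341 to 0.894 CPM in HSC-MF-7d, at least 14.5-fold higher, against 50.7 to 80.5 and 5.505 to 7.603 CPM in PMSC. Ephb4, the venous receptor of ephrin B2, rose in PMSC (1.44) and fell in HSC (-0.96).

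The 250 bases before the transcription start (RefSeq, GRCm38.p6) were searched in 13 named genes for motifs of the regulators AP-1, HIF and CREB, which are known to bind short motifs before the starts of many protease, cytokine and glycolysis genes. Shown are 5 genes higher in fresh PMSC, chosen after the search because a motif was found in them. Capitals mark the AP-1 motif TGANTCA, the hypoxia response core ACGTG and the cAMP response element TGACGTCA, searched on both strands. No 2 of the 3 motifs overlapped in these windows. Each reads 5′ to 3′ on the gene's strand: Mmp3 at chr9:7445572-7445821 (plus), Il6 at chr5:30012864-30013113 (plus), Lif at chr11:4257318-4257567 (plus), Hk2 at chr6:82774455-82774704 (minus) and Slc16a3 at chr11:120948817-120949066 (plus).
Mmp3: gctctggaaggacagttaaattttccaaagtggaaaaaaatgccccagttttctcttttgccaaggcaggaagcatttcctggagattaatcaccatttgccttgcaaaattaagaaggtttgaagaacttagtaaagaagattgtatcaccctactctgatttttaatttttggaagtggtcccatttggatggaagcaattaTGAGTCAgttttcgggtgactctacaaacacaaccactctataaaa
Il6: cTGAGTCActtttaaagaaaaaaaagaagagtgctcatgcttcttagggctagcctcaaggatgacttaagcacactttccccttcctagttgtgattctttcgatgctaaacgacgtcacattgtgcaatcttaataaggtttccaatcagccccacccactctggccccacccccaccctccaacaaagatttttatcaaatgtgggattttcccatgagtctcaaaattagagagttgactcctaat
Lif: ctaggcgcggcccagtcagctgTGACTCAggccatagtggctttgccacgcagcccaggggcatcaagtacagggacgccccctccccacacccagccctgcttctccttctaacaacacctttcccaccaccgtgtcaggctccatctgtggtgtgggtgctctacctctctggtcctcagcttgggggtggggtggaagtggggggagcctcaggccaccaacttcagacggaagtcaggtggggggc
Hk2: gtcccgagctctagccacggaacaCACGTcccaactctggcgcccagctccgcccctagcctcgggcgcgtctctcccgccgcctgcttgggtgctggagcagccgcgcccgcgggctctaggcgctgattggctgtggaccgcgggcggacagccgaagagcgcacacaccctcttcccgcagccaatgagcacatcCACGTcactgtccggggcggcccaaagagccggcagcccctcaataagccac
Slc16a3: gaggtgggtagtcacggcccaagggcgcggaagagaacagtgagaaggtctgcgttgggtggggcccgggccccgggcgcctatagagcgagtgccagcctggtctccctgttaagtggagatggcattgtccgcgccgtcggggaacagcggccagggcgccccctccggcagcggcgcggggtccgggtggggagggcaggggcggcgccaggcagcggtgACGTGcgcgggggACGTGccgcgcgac

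The windows of Mmp3, Il6 and Lif each held 1 AP-1 motif, which began 46, 249 and 228 bases before the start. Those of Hk2 and Slc16a3 each held 2 copies of the hypoxia core, 226 and 52 bases before the start of Hk2 and 27 and 14 before that of Slc16a3. The Slc16a3 window lies within the span of the gene (chr11:120948484-120959000), before a start further in, and not at the start of the gene. No motif was found in the windows of Ptgs2, Serpine2 and Pgf, which were also higher in fresh PMSC, or in those of Cyp26b1, Adam23 and Epb41l3, which move the other way. The windows of Pgf also lie within the span of the gene (chr12:85166637-85177785), so the bases before its outer start were not searched. Those of Cyp26b1 and Adam23 lie in part within their genes. Of the 2 windows of Vegfa, that at the start of the gene held none and the other held 1 hypoxia core. Mgll, which rose in PMSC and fell in HSC, held the hypoxia core in both of its windows. In the first, CACGTG reads as the core on each strand, so its 2 matches share the same letters. Among opposite movers that fell in PMSC and rose in HSC, 65 of 722 with a window held the AP-1 motif (9%), against 29 of 624 in the other direction (4.65%) and 6.05% of 11463 genes tested. The hypoxia core was in 28.9%, 25.6% and 24.1%, and the cAMP element in 4.43%, 2.08% and 2.9%. Over all 27025 genes with a window the 3 shares were 7.82%, 18.5% and 1.77%. A match describes the letters and shows no binding, and no test was made of these shares.

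Growth factors and their receptors had a lower difference in 20 of 34 and a higher one in 4 (median -1.46, or -1.37 with 2 members at the floor). All 7 opposite movers fell in PMSC and rose in HSC, 4 of them in the EGF family: the ligands Ereg, Areg and Hbegf and the receptor Egfr. Hbegf was an opposite mover in 5 of 26 other settings. Ereg encodes epiregulin. Ereg stood at 496, 426, 493 and 834 CPM in fresh PMSC and at 154, 322, 247 and 209 in PMSC-MF-7d, against 23.4, 17.2, 15.5 and 17.2 in fresh HSC and 412, 536, 554 and 624 in HSC-MF-7d. The fresh groups lay apart, while cultured HSC overlapped fresh PMSC, and the gaps were 4.94 and -1.19. Egfr fell by 2.44 from 458 CPM (379.7 to 561) to 84.2 CPM (61.4 to 101) in PMSC and rose by 1.72 from 98.4 CPM (48.2 to 192) to 324 CPM (271 to 359) in HSC, with gaps of 2.22 and -1.94 whose sizes were not separated (edgeR adjusted p = 0.58). Its highest fresh HSC value was in replicate 2, and without that library the sizes were separated. Against PMSC-MF-3d the fresh gap of Egfr was the larger. Fgfr1, a receptor of fibroblast growth factors, went from 379 CPM (308 to 489.6) to 146 CPM (140.1 to 154) in PMSC and from 39.2 CPM (32.1 to 43.9) to 158 CPM (148 to 165) in HSC, so the cultured groups overlapped. Gdnf, a growth factor of neurons, was at 0 counts in fresh HSC and 5.86 to 7.65 CPM in HSC-MF-7d.

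Wnt pathway genes had a lower difference in 17 of 27 and a higher one in 2, with a median of -2.44, the same to 2 decimals with the 6 members that had a group without counts set to the floor. The ligands Wnt2b, Wnt9a and Wnt11 and the secreted inhibitors Sfrp1 and Frzb fell in PMSC and rose in HSC, and the ligand Wnt2 did the reverse. Wnt11 was no opposite mover with the 3-day libraries. Frzb was none without HSC replicate 1 or 4 or HSC-MF-7d replicate 2 or 3, and Wnt2 none without PMSC replicate 1, 2 or 4. Sfrp1 binds Wnt proteins outside the cell. Sfrp1 stood at 2009, 2239, 1313 and 1144 CPM in fresh PMSC and at 70.4, 11.7, 8.98 and 6.36 in PMSC-MF-7d, against 0.422, 0.0596, 1.21 and 1.11 in fresh HSC and 3.89, 7.904, 7.29 and 6.85 in HSC-MF-7d. Sfrp1 fell by 6.103 in PMSC and rose by 3.19 in HSC, and replicate 1 of PMSC-MF-7d stood above the other 3. Frzb, another such binder, was higher in HSC in both states, with gaps of -1.68 and -4.57, so its difference lay in the cultured cells. Wnt11 stood at 17.6 to 58.9 CPM in fresh PMSC and at or below 4.86 CPM in the other 3 groups. In the TGF-beta and BMP list, 21 of 33 had a lower difference and 5 a higher one (median -1.35). Tgfb2, a ligand of this pathway, fell by 1.495 from 118 CPM (108 to 130.3) to 41.8 CPM (35.5 to 50.9) in PMSC and rose by 3.14 from 7.97 CPM (5.84 to 9.23) to 70.1 CPM (61.4 to 75.9) in HSC. Fstl3, which binds activins, went from 106 CPM (94.97 to 113) to 62.98 CPM (47.6 to 69.7) in PMSC and from 1.02 CPM (0 to 1.97) to 77.8 CPM (73.5 to 80.97) in HSC. It fell by 0.76 in PMSC, a change not called with library totals or limma. The inhibitors Smad7 and Skil fell in PMSC (-1.38 and -3.17) and rose in HSC (0.696 and 0.37). The rise of Skil was not called without HSC replicate 2 or 4 or HSC-MF-7d replicate 4. Inhbb, the activin beta-B subunit, moved the other way and is given below with the genes whose cultured gap was larger.

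Of 21 genes in the list of antioxidant and metallothionein genes, 11 had a lower and 6 a higher difference (median -0.66). Hmox1, Txnrd1, Srxn1 and Gpx3 fell in PMSC and rose in HSC, while Gsr, Gpx1 and Gsta4 rose in PMSC and fell in HSC. Hmox1 encodes the heme-degrading enzyme heme oxygenase 1. Hmox1 stood at 1257, 1171, 671 and 755 CPM in fresh PMSC and at 255, 703, 493 and 402 in PMSC-MF-7d, against 416, 218, 219.8 and 182 in fresh HSC and 1755, 1515, 1756 and 1482 in HSC-MF-7d. Its gaps were 1.896 and -1.81, of sizes that were not separated (edgeR adjusted p = 0.88), and its fall in PMSC was not called with library totals. Txnrd1, thioredoxin reductase 1, fell by 0.97 in PMSC and rose by 2.82 in HSC, with gaps of 2.52 and -1.27. With the 3-day libraries Hmox1, Txnrd1, Srxn1 and Gpx1 were no opposite movers, and Srxn1 was none with library totals or limma. Gpx3, a secreted glutathione peroxidase, stood at 2014 to 2614 CPM in fresh PMSC and between 20.3 and 84.97 CPM in the other 3 groups. Its rise in HSC of 0.74 was not called without HSC replicate 3 or 4 or without HSC-MF-7d replicate 2 or 4. Over all genes tested 6.3% fell in PMSC and rose in HSC. The basement membrane list had 3 of 21, all with a fall in PMSC: Lama2, Col4a6 and Nid2 (Nid2 not with library totals or limma). Lama2, the laminin chain of muscle and mesenchyme, went from 1582 CPM (1332 to 1916) to 169 CPM (120.3 to 218) in PMSC and from 87.2 CPM (71.1 to 101) to 327 CPM (308 to 345) in HSC. The collagen processing list had 2 of 21, Bmp1 and Pcolce2, and the elastic fibre list had Fbln1. The list of fibrillar collagens and related matrix had none. With the 3-day libraries the basement membrane, collagen processing, elastic fibre and fibrillar lists had 5, 4, 2 and 4. Fbln1, fibulin-1, is also in the portal fibroblast list. Fbln1 stood at 3851, 4367, 4078 and 3589 CPM in fresh PMSC and at 16.8, 9.83, 12.2 and 13.5 in PMSC-MF-7d, against 1.99, 2.03, 1.43 and 1.24 in fresh HSC and 4.21, 4.76, 4.497 and 4.57 in HSC-MF-7d. Fbln1 fell by 8.25 in PMSC and rose by 1.43 in HSC, where no library reached 5 CPM. Bmp1, the protease that trims procollagens, went from 482 CPM (395 to 615) to 279 CPM (238 to 321) in PMSC and from 53.8 CPM (44.1 to 68.2) to 267 CPM (262 to 274) in HSC, with no called cultured gap (0.06, edgeR adjusted p = 0.73). Against PMSC-MF-3d its cultured gap was -0.85 and called (edgeR adjusted p = 2.8e-05).

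Among axon guidance genes, which also steer mesenchymal cells, 16 of 29 had a lower difference and 8 a higher one (median -1.05, or -1.02 with 3 members at the floor). Robo1, Robo2, Sema3c and Sema5a fell in PMSC and rose in HSC, and Slit1, a ligand of the Robo receptors, did the reverse at no more than 2.81 CPM. Sema3c was no opposite mover with the 3-day libraries, and Robo1 none with library totals or limma. Sema5a, a semaphorin, stood at 122, 148, 106 and 147 CPM in fresh PMSC, 14.7, 16.3, 15.5 and 9.83 in PMSC-MF-7d, 9.48, 12.2, 6.22 and 11.6 in fresh HSC and 16.98, 23.4, 22.6 and 23.8 in HSC-MF-7d. Its gap went from 3.73 to -0.62. Robo2 was higher in HSC in both states, with a larger cultured gap: 57.4, 49.3, 35.1 and 47.1 CPM in fresh PMSC, 14.7, 19.4, 14.8 and 6.61 in PMSC-MF-7d, 133, 225, 209 and 189 in fresh HSC and 375, 344, 384 and 334 in HSC-MF-7d. The list of cell cycle inhibitors and p53 targets was split, 8 higher and 6 lower of 20 (median 0.04). Cdkn1a, the p21 inhibitor of cyclin-dependent kinases, went from 531 CPM (449.5 to 591) to 365 CPM (306 to 390.3) in PMSC and from 137 CPM (113 to 167) to 628 CPM (622 to 635) in HSC; its fall in PMSC was not called with library totals or limma. Wwtr1 and Yap1, the TAZ and YAP coactivators that respond to stiffness, fell by 1.16 and 0.39 in PMSC and rose by 0.63 and 0.66 in HSC. The fall of Yap1 was not called with library totals or limma. Of the 17 genes of their list 13 rose in PMSC and 15 in HSC. Ch25h, which makes 25-hydroxycholesterol, and Boc, a hedgehog co-receptor, were chosen after their values were seen. Ch25h went from 99.8 CPM (76.4 to 119) to 14.1 CPM (12.4 to 15.3) in PMSC and from 1.67 CPM (0.935 to 3.199) to 20.4 CPM (16.1 to 22.4) in HSC, and its cultured gap was -0.54 (edgeR adjusted p = 0.051). Against PMSC-MF-3d that gap was 1.555 and called (edgeR adjusted p = 6.4e-06). Boc kept a portal excess of 0.89 after culture, against 6.77 in fresh cells.

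The 12 opposite movers of this direction with the largest changes, by the size of the smaller of their 2 changes, were Mmp3, Adamts8, Slc8a2, Htr1d, Kcnn3, Pcdh10, Stc2, Galnt16, Acsbg1, Fxyd6, Pappa2 and Tmem132c. Apart from Mmp3 and Acsbg1 they stood at no more than 2.08 CPM in any HSC library, so the rise in HSC was from a level near 0 to a low one. Adamts8, a metalloprotease, had 80.5, 81.1, 66.7 and 60.3 CPM in fresh PMSC and 0.543, 0.204, 0.513 and 0.954 in PMSC-MF-7d, no count in fresh HSC and 1.21, 0.608, 1.09 and 0.797 CPM in HSC-MF-7d, at least 20.4-fold above the floor of 3 counts over the fresh group. Stc2, the secreted glycoprotein stanniocalcin-2, went from 164 CPM (104 to 251) to 3.14 CPM (2.68 to 3.51) in PMSC, against 1.43 to 2.08 CPM in HSC-MF-7d. Acsbg1, an acyl-CoA synthetase, was with Mmp3 one of the 2 that reached 10 CPM in both lineages, from 59.8 CPM (52.99 to 75.02) to 2.01 CPM (0.652 to 3.43) in PMSC and from 0.0898 CPM (0 to 0.238) to 14.4 CPM (13.5 to 15.7) in HSC. Among opposite movers that reached 10 CPM in the higher group of each lineage, a cut made after the values were seen, those with the largest changes included Mmp3, Acsbg1, Fndc1, Lif, Tfpi2, Olr1 and Serpine2, and also Gfpt2, Procr and Peg3. With the 3-day libraries Olr1 and Procr were no opposite movers. Gfpt2, an enzyme that feeds glucose into hexosamines, showed 2147, 2969, 3541 and 1854 CPM in fresh PMSC, 67.99, 79.4, 70.3 and 64.9 in PMSC-MF-7d, 11.3, 24.02, 12.6 and 15.3 in fresh HSC and 126, 167, 169.8 and 164 in HSC-MF-7d. Fndc1 fell by 5.78 in PMSC and rose by 3.87 in HSC, and for both genes the fresh gap was the larger. Tfpi2, an inhibitor of serine proteases, and Peg3, an imprinted zinc finger gene, exchanged rank with gaps whose sizes were not separated. Tfpi2 had gaps of 4.03 and -3.91 (edgeR adjusted p = 0.78 for the sizes) and Peg3 of 3.399 and -3.797 (adjusted p = 0.31). Against PMSC-MF-3d the fresh gap was the larger for Tfpi2 and the cultured gap for Peg3. The sizes for Peg3 were also separated with limma.

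In the other direction, 796 genes rose in PMSC and fell in HSC. Cyp26b1, the enzyme that degrades retinoic acid, was at 9.44, 5.87, 7.42 and 4.47 CPM in fresh PMSC and 61.4, 26.1, 48.4 and 74.8 in PMSC-MF-7d, against 579.5, 187, 174 and 318 in fresh HSC and 1.89, 17.4, 9.402 and 14.02 in HSC-MF-7d. The groups of each lineage did not overlap. Its fresh gap was -5.54 and its cultured gap 2.298. The rise in PMSC was present at 7 days and not at 3: PMSC-MF-3d held 1.31 to 3.77 CPM, below fresh PMSC (-1.46), so Cyp26b1 was not an opposite mover with the 3-day libraries. Retinoid genes as a list had 6 higher and 7 lower differences of 18, against 31.4% and 29.2% over all genes tested. Their median was -0.11, or -0.46 with 1 member set to the floor. The 3 other opposite movers, Aldh1a1, Rarb and Bco1, fell in PMSC and rose in HSC. Rarb, a retinoic acid receptor, went from 15.99 CPM (12.6 to 20.6) to 0.571 CPM (0.293 to 0.848) in PMSC and from 62.5 CPM (58.5 to 72.8) to 95.3 CPM (61.3 to 113) in HSC, so HSC stood higher throughout and the cultured gap of -7.38 was the larger. Bco1, the enzyme that splits beta-carotene, was at 1.04 to 2.27 CPM in fresh PMSC and 0.145 to 1.25 in PMSC-MF-7d and went from 135 CPM (108 to 154) to 1313 CPM (1263 to 1352) in HSC. Aldh1a1, a retinal dehydrogenase, had a cultured gap of -2.34 and a fresh gap of 0.41; it shares sequence with Aldh1a7, between which shared reads may have been divided. Fat storage genes had 8 higher and 5 lower differences of 18 (median 0.65), with 3 opposite movers that rose in PMSC and fell in HSC: Mgll, Pparg and Scd1. Mgll encodes monoacylglycerol lipase. Mgll stood at 52.3, 39.8, 70.5 and 38.2 CPM in fresh PMSC and at 126, 181, 167 and 173 in PMSC-MF-7d, against 208, 178, 230.4 and 243 in fresh HSC and 88.8, 84.5, 74.5 and 87.8 in HSC-MF-7d. Pparg, the regulator of fat cell formation, went from 1.17 CPM (0.813 to 1.52) to 8.66 CPM (3.996 to 12.1) in PMSC and from 4.06 CPM (2.75 to 6.22) to 0.604 CPM (0.341 to 0.912) in HSC. Scd1, a fatty acid desaturase also abundant in hepatocytes, was highest in HSC replicates 1 and 2 (2332, 1578, 669 and 727 CPM), the 2 with the most Alb. Its rise in PMSC of 0.69 was called in 15 of 26 other settings. The part of hepatocytes in the level and the fall of Scd1 in HSC was not tested.

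Other genes of this direction with 10 CPM in both lineages included Ptprb, Adam23, Epb41l3, Cavin2 and Cit. Adam23, a surface protein of the ADAM family without protease activity, exchanged rank: 13.6, 27.7, 11.6 and 8.25 CPM in fresh PMSC, 144, 61.8, 93.1 and 104 in PMSC-MF-7d, 405, 357, 316 and 330.1 in fresh HSC and 7.78, 5.32, 4.43 and 4.78 in HSC-MF-7d. Its gaps of -4.52 and 4.16 were not separated in size (edgeR adjusted p = 0.49). They were separated with limma and against PMSC-MF-3d, where the fresh gap was the larger. Cavin2, a coat protein of caveolae, also exchanged rank, from 91.8 CPM (72.8 to 115) to 448 CPM (270.5 to 544) in PMSC and from 349 CPM (235 to 404) to 121 CPM (110.2 to 130.5) in HSC. Its gaps of -1.93 and 1.895 were of sizes not separated, and with the 3-day libraries it was no opposite mover. Cit, citron kinase, which acts in cell division, rose by 3.58 in PMSC and fell by 1.54 in HSC. Ccnd1, cyclin D1, rose by 4.01 from 30.3 CPM (25.04 to 36.4) to 487 CPM (434 to 570.3) in PMSC and fell by 0.39 from 225 CPM (201 to 248) to 172 CPM (142 to 191) in HSC. Ptprb, a phosphatase of endothelial cells, is one of the 20 endothelial markers. Ptprb stood at 71.5, 44.4, 13.2 and 20.1 CPM in fresh PMSC and at 139, 324, 318 and 287 in PMSC-MF-7d, against 2019.8, 1696, 2126 and 2254 in fresh HSC and 266, 202, 212 and 235 in HSC-MF-7d. Its cultured groups overlapped, and its fall in HSC came with that of the summed endothelial markers given above, whose part in the result was not tested.

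The 12 genes of this direction with the largest changes by the same rule were Ly9, Evi2a, Pilra, Sh3tc2, C3ar1, Ifi209, Rarres1, Rbm47, Aldh1a7, Cd300lb, Cd53 and Klra2. With the 3-day libraries Sh3tc2, Rarres1, Aldh1a7, Cd53 and Klra2 were no opposite movers. Several are genes of blood cells: C3ar1 is a complement receptor, Ly9 and Cd53 are leukocyte surface proteins and Cd300lb and Pilra are myeloid receptors. C3ar1 had 0, 0.189, 0 and 0 CPM in fresh PMSC and 4.13, 6.85, 6.96 and 6.04 in PMSC-MF-7d, 63.5, 26.5, 27.3 and 18.3 in fresh HSC and 2.94, 0.912, 2.04 and 2.496 in HSC-MF-7d. The rise in PMSC was 115-fold (95% counting interval 39.1 to 558) over 3 counts. Cd53 went from 0.147 CPM (0.0581 to 0.253) to 3.43 CPM (2.498 to 4.28) in PMSC and from 86.6 CPM (47.7 to 149.8) to 8.79 CPM (4.15 to 11.4) in HSC. Ly9 stood on 1 count in fresh PMSC and reached 0.978 to 1.43 CPM in PMSC-MF-7d. The macrophage marker Csf1r moved likewise, from 1.86, 3.66, 0.104 and 2.498 to 7.06, 10.5, 7.04 and 8.13 CPM in PMSC and from 1368, 621, 618 and 377 to 9.89, 8.77, 7.22 and 8.13 CPM in HSC. HSC replicate 1, highest for Csf1r, was also highest for C3ar1, Cd53, Ly9, Cd300lb, Pilra, Klra2 and Evi2a. This was not particular to genes of blood cells. Among fresh HSC, replicate 1 was also highest for Cyp26b1, Adam23, Epb41l3 and Inhbb, though not for Mgll, Ptprb or Tnfrsf11b. All 19 macrophage markers fell in HSC, while in PMSC 9 fell and 1 rose. Vsig4, Marco and Cd163 had no count in fresh PMSC, and Cd163, Adgre1, Timd4, Tyrobp and Fcer1g had none in PMSC-MF-7d. The part of other cells in the fall of these genes in HSC was not tested. Klra2, Ifi209 and Cd300lb belong to families of like genes, between which shared reads may have been divided. Without HSC replicates 1 and 2, a setting chosen after the data were seen, 1641 genes were opposite movers, 1445 of them among the 1725, and the fresh gap was the larger in 70.7%.

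The cultured gap was the larger in 171 opposite movers. Thbd encodes thrombomodulin, a surface anticoagulant. Thbd stood at 351, 809, 1319 and 347 CPM in fresh PMSC and at 83.997, 91.9, 77.2 and 75.5 in PMSC-MF-7d, against 276, 193, 196 and 228 in fresh HSC and 1071, 1635, 1536 and 1586 in HSC-MF-7d. HSC-MF-7d stood highest and PMSC-MF-7d lowest, with gaps of 1.66 in fresh and -4.15 in cultured cells (edgeR adjusted p = 3.8e-05 for the sizes). Epb41l3, a membrane skeleton protein, showed the reverse. Epb41l3 stood at 11.2, 17.05, 17.9 and 10.1 CPM in fresh PMSC and at 123, 107, 141 and 159 in PMSC-MF-7d, against 51.1, 28.7, 20.7 and 15.8 in fresh HSC and 7.15, 6.43, 5.72 and 8.55 in HSC-MF-7d. Its gap went from -1.06 to 4.24 (adjusted p = 1.0e-06 for the sizes). Inhbb was at 14.03, 10.99, 12.95 and 10.7 CPM in fresh PMSC, 35.7, 14.9, 25.7 and 28.7 in PMSC-MF-7d, 83.1, 49.6, 40.4 and 50.3 in fresh HSC and 1.05, 0.861, 1.43 and 1.22 in HSC-MF-7d. The fall in HSC left a cultured gap of 4.53, against a fresh gap of -2.201. Angptl4 had a fresh gap of 1.81 and a cultured gap of -3.72. Angptl4 went from 149 CPM (98.7 to 225) to 26.8 CPM (10.8 to 46.8) in PMSC, and in HSC from a range of 24.5 to 69.3 CPM to one of 303 to 383 CPM. Thbd and Epb41l3 kept both their opposite movement and the larger cultured gap with the 3-day libraries, and Inhbb and Angptl4 lost both. Olr1, a scavenger receptor of oxidized lipoproteins, lay at the limit. Its gaps of 2.903 and -3.97 passed the size test (adjusted p = 0.0496) but in only 8 of 26 other settings.

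**Figure D4:**
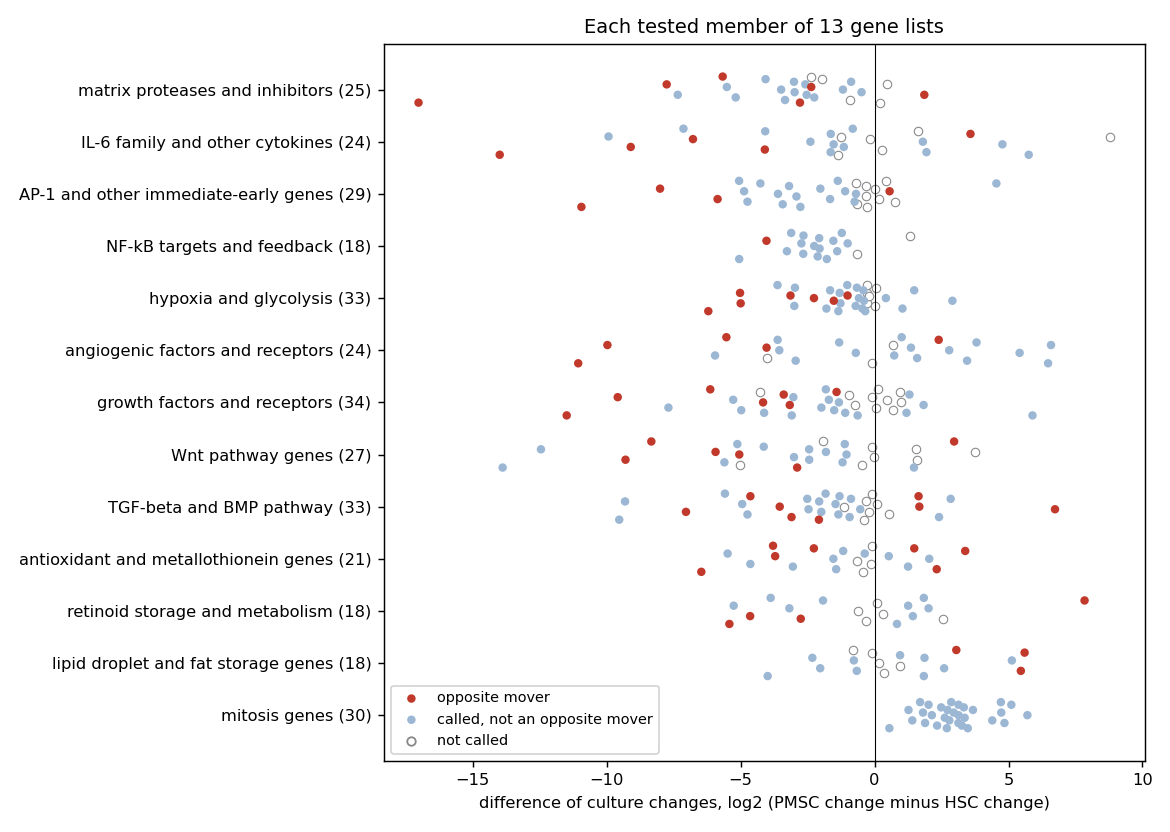
Each point is a tested member of 1 of 13 gene lists, placed by its difference of culture changes in log2; vertical offsets only separate points. Red points are opposite movers, blue points have a called difference without opposite movement and open points were not called. All 30 mitosis genes lie to the right of 0 with no opposite mover, and the red points of the hypoxia and growth factor lists all lie to the left.

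Other lists differed between the culture changes with no opposite mover. All 30 mitosis genes had a higher difference (median 2.91): they rose in PMSC in 30 of 30 and in HSC in 28. Cdk1, the mitotic kinase, rose by 7.25 in PMSC, from 0.516 CPM (0 to 1.33) to 87.2 CPM (84.01 to 91.1), and by 2.52 in HSC, from 8.69 CPM (7.21 to 11.2) to 49.96 CPM (48.03 to 51.6). Cdk1 was lower in PMSC than in HSC when fresh (-3.93) and higher when cultured (0.803). Over the list the fresh level was lower in PMSC for 26 of 30 and the cultured level higher for 30. The median fresh gap was -1.55 and the median cultured gap 1.19. Of 21 chemokines 18 fell in PMSC and 18 in HSC, with 10 lower differences and 1 higher (median -1.96, or -2.64 with 5 members at the floor). Cxcl1, which attracts neutrophils, fell by 9.68 in PMSC from 3146 to 5329 CPM and fell by 5.21 in HSC from 84.1 to 167 CPM. Interferon response genes fell in 24 and 25 of 25, with 12 lower and 4 higher differences (9 and 10 with limma on log2(TPM + 1)). Fibrillar collagens and related matrix had 13 lower and 4 higher of 20 (median -1.54). Col12a1, a collagen of fibril surfaces, went from 278 CPM (211 to 359.7) to 1322 CPM (1071 to 1544) in PMSC and from 2.73 CPM (0.422 to 8.05) to 1566 CPM (1389 to 1703) in HSC. Dcn, decorin, fell in both but further in PMSC (-7.88 against -3.33), and its difference lay in the cultured cells (-4.13), since the fresh gap was 0.43 (edgeR adjusted p = 0.096).

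Among genes without opposite movement and with at least 20 CPM in their highest group, the 6 highest differences were those of Marco, Wfdc21, Uroc1, Fcgr1, Fcgr4 and Pgm5. Marco, Fcgr1 and Fcgr4 are receptors of macrophages; Marco had no count in fresh PMSC, 416, 268, 118 and 54.3 CPM in fresh HSC and at most 0.368 CPM in the cultured groups, so its difference rests on the fresh HSC libraries. Among the lowest were Dkk2, Syt13, Has2, Wif1 and Tnfsf18. Has2, which makes hyaluronan, had 22.3, 24.7, 98.6 and 18.1 CPM in fresh PMSC, 23.2, 28.6, 23.3 and 19.5 in PMSC-MF-7d, 1 library with counts in fresh HSC and 179.9, 169.5, 187 and 158 CPM in HSC-MF-7d. Dkk2, a secreted Wnt regulator, had no count in fresh HSC and 73.9 to 108 CPM in HSC-MF-7d, and overlapped between the PMSC groups (2.905 to 21.4 and 7.58 to 19.2 CPM). Wif1, a Wnt inhibitor, fell in PMSC with no called change in HSC.

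With the 3-day PMSC libraries in place of the 7-day ones, 1701 genes were opposite movers and 1313 of them were among the 1725 (76.1%). The fresh gap was the larger in 66.8% and the cultured gap in 14.1%. Vegfa, Pgf, Lif and Ptgs2 stayed opposite movers, with cultured gaps of 0.43, -2.33, 1.24 and -1.199. That of Vegfa, not called with the 7-day libraries, was called with the 3-day ones (edgeR adjusted p = 0.021). For Lif and Vegfa the sign of the cultured gap was then on the portal side, and for Pgf and Ptgs2 it was on the stellate side at both times. These 3-day values share the fresh PMSC, fresh HSC and HSC-MF-7d libraries with the 7-day ones, so they are not an independent repeat.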

How the data were processed

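Per the submitters' processing notes, reads were checked with FastQC, trimmed with Trimmomatic, aligned with STAR 2.5.3a to mm10 and quantified with RSEM 1.2.28; per the labels' protocols, RNA came from an RNeasy Micro kit and libraries from a KAPA Stranded mRNA-Seq kit. The deposited files give an expected count and a TPM value per gene, scaled by the authors within each library. Expected counts were rounded to whole numbers (0.64% to 0.87% of genes had a decimal part). RSEM divides reads shared by like genes, so paralogs are uncertain.

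Genes were filtered by group and fitted with edgeR 4.0.16 (R 4.3.3; robust quasi-likelihood, trimmed means of M values) over all 20 libraries, so that the 5 groups share 1 estimate of spread. Contrasts compared 4 groups of 4, with Benjamini-Hochberg adjustment over 14751 genes. A cultured gap or fresh gap is called larger where the sum of the gaps passes (opposite signs), or their difference (same sign). A fold against a group without counts uses a floor of 3 counts over the group; the 95% intervals and the floor cover counting error only. Alternatives used DESeq2 1.42.0, limma 3.58.1 on log2(TPM + 1) and the settings given below. Simulated data were used only to try the call of the difference, for genes with a shift in PMSC-MF-7d and without low counts. The calls of opposite movers and of the larger gap were not tried in this way.

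Named genes are the 4 given ones, the 12 of each direction with the largest smaller change (at least 10 CPM in the highest group, no overlap of fresh and cultured libraries), the 6 highest and 6 lowest other differences (at least 20 CPM), and up to 4 per list. Predicted genes were left out, and some named genes are not reported here. Other opposite movers of lists, and those taken for their level in both lineages, were chosen after their values were seen. The members and the 38 lists were chosen with earlier results of these data known.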

Additional observations from a re-analysis of the deposited data

Results flagged for a closer look

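Mmp3 in HSC-MF-7d replicate 1 stood at 70.5 CPM, far from the other 3 libraries of its group at 186 to 199 CPM. Of 38 groups of 4 libraries examined for the named genes it was the 1 so marked, and chance marks about 1 in 20 groups. Leaving this library out did not end the opposite movement of Mmp3.

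The culture changes differed between the lineages by the test of the difference itself in 8943 genes. Of the 4 genes set for the comparison, the difference was -17.0 for Mmp3, -7.13 for Il6, -4.03 for Vegfa and -11.1 for Pgf on the log2 scale (edgeR), each lower in PMSC.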

How the results depend on the processing

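The counts stayed within 1.5 times under DESeq2, its size factors, library totals, no filter on low counts, 16 libraries only, the 3-day PMSC libraries and each left-out replicate. With 1 replicate left out, opposite movers numbered 1588 to 1771 and 89.3% to 94.8% of the 1725 were kept. Library totals kept 69.6% and limma 65.1%. The fresh gap was the larger in 66.8% to 75.3% of opposite movers under all settings.

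With limma on log2(TPM + 1), 7226 differences were higher in PMSC and 593 opposite movers fell in PMSC. At an adjusted p under 0.01, 515 opposite movers rose in PMSC and the cultured gap was larger in 82. Requiring changes of at least 2-fold left 2680 higher differences, 155 and 391 opposite movers that rose and fell in PMSC, 411 with the larger fresh gap and 39 with the larger cultured gap. Requiring at least 10 CPM in each lineage, chosen after seeing the data, left 608 that fell in PMSC. These thresholds keep fewer genes by construction; for limma the cause was not tested.

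Over 202 of the genes that the naming rules chose, not all of which are described above, the difference of culture changes never changed its sign, and 66 values lost their call against 5388 that stayed on their side of the threshold. Opposite movement was lost in 124 of 3042 pairs of a gene and a setting over the 117 opposite movers among them. With the 3-day libraries 23 of the 117 lost it. Many of the 202 genes were chosen for large changes or differences in these same libraries. Their choice therefore favoured a stable sign and a kept call, and these counts do not describe the other genes tested. Whether the replicate numbers pair the samples is not known. Deviations of same-numbered libraries correlated at -0.083 to 0.16 and those of other numbers at -0.19 to 0.13, which cannot decide it. With the replicate block 1673 genes were opposite movers, 768 of them rising and 905 falling in PMSC, and 1648 of the 1725 were kept. Depth limits genes near 0 counts: 95 opposite movers had a group without counts, for which the size of a fitted change is no bound.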
